A study of Mus musculus with 24 samples.

Results

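The 8 genes *Hmgcs1*, *Idi1*, *Fdps*, *Fdft1*, *Sqle*, *Lss*, *Cyp51* and *Insig1* were examined in 4 tissues of Trex1-KO mice given the STING antagonist SN-011. They were chosen by symbol, in GENCODE M21, as cholesterol synthesis genes known to respond to the transcription factor SREBP2, and are 8 of the 54532 genes in the count files. The choice was made with earlier results of these data known. Shares of members set beside all genes therefore describe the list and do not test it. RNA-Seq of heart, stomach, muscle and tongue gave 24 samples, with 3 control and 3 SN-011 samples in each tissue. All 24 samples carry the Trex1 knockout, which removes a DNA exonuclease and leaves the cGAS-STING pathway active, so no wild-type group was compared. Per the labels, SN-011 was given at 5 mg/kg, 3 times per week for 4 weeks, and the controls were untreated. The methods text instead describes daily intraperitoneal injection at a higher dose for a shorter time, in mice of 1 month, with vehicle (Tween 80 in PBS) as the control, and the difference could not be settled here. The labels do not say whether tissues with the same replicate number came from the same mouse. The p-values therefore measure the spread between these samples only.

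Cholesterol is built from acetyl-CoA through mevalonate, isoprenoids, squalene and lanosterol. *Hmgcs1* makes the HMG-CoA that enters the mevalonate pathway, *Idi1* and *Fdps* act on the isoprenoids, *Fdft1* joins farnesyl diphosphate into squalene, *Sqle* oxidises squalene, *Lss* closes the ring to lanosterol and *Cyp51* removes a methyl group from lanosterol. When sterols run low in the endoplasmic reticulum, SCAP carries SREBP2 to the Golgi, where proteases free its transcription factor domain, and these genes are transcribed together. *Insig1* is itself a target of this response and encodes a protein that holds SCAP back in the endoplasmic reticulum. STING resides in the endoplasmic reticulum too. In epithelia that turn over and in the stratified epithelium of the tongue, cholesterol is needed for new membranes.

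Several libraries stood apart from their groups. Control replicate 1 of every tissue came from a female, with 3060 to 13811 counts of *Xist* against at most 20 in the other libraries, and the SN-011 mice were all male. Muscle SN-011 replicate 2 listed counts for 11546 genes, against 19798 or more in the other 23 libraries, and it carried the pancreatic lipase gene *Pnlip* at 19.5 CPM (a gene's read count scaled to the depth of its library), against at most 0.158 CPM in the other muscle libraries. The summed level of 6 gastric gland markers was 264 to 974 CPM in control replicate 2 of heart, muscle and tongue, and at most 20.3 CPM in the SN-011 libraries of these tissues. Total counts were 14253416 to 18443329 per library. *Trex1* was listed at 0 in all 24 libraries, but *Atrip* lies over it on the same strand, and no wild-type library was at hand to check the count. The tissues carried their own markers, with summed cardiac markers at 22550 CPM or more in heart and summed skeletal muscle markers at 117800 CPM or more in muscle.

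The promoters are shown because the genes are known to be switched on together through elements close to their starts, where SREBP works beside NF-Y, which binds CCAAT boxes, and Sp1, which binds GC boxes. RefSeq's table for GRCm38.p6 held a window for 5 of the 8 genes. None was found there for *Sqle*, *Fdft1* and *Fdps*. The 250 bases before the start that RefSeq's table gives each gene follow, 5′ to 3′ on the strand of the gene. Matches to TCACNCCAC, a form of the sterol regulatory element, and to CCAAT are in capitals. Both strands were searched, and on the other strand CCAAT reads ATTGG. By GENCODE M21, *Idi1*, *Lss*, *Cyp51* and *Insig1* start inside their windows, and the CCAAT matches of *Idi1* and *Cyp51* lie past those starts.
Hmgcs1: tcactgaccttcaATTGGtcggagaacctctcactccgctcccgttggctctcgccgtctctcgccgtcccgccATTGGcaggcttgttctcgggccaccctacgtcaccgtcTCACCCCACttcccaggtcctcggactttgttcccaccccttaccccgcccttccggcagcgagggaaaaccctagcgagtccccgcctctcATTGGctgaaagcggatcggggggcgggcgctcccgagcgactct
Idi1: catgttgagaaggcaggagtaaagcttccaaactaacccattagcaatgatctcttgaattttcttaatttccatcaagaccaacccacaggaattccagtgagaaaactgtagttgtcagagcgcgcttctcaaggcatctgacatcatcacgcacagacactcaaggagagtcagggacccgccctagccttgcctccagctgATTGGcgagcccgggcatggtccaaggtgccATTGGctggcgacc
Lss: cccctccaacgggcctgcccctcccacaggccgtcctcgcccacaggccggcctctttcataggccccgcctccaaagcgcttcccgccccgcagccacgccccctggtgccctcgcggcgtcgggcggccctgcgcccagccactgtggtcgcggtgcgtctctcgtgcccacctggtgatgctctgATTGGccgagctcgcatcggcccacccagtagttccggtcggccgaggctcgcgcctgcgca
Cyp51: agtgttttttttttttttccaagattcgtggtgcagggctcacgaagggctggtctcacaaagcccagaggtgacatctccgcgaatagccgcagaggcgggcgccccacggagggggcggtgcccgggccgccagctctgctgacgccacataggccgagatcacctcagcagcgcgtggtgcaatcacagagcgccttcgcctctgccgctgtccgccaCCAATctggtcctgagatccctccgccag
Insig1: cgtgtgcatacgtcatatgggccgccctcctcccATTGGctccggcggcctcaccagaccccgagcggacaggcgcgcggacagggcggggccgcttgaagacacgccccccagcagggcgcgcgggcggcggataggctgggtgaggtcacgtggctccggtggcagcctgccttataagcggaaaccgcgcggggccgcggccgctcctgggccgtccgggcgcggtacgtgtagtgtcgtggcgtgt
*Hmgcs1* lies at chr13:119690101-119690350 (plus strand), *Idi1* at chr13:8885356-8885605 (plus), *Lss* at chr10:76531355-76531604 (plus), *Cyp51* at chr5:4104698-4104947 (minus) and *Insig1* at chr5:28071162-28071411 (plus).

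Among these 5 windows, TCACNCCAC was found in *Hmgcs1* alone, as TCACCCCAC starting 137 bases before RefSeq's start of the gene. It was found in 1.05% of the 32817 windows of the table. All 5 windows held CCAAT on at least 1 strand, with 3 matches in *Hmgcs1*, 2 in *Idi1* and 1 in each of the others, against 33.8% of all windows with a match. All 5 also held the GC box GGGCGG on at least 1 strand, against 32.7% of all windows. These matches describe the letters only, and binding was not measured.

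In control tissue the genes were most abundant in stomach or tongue. On a scale common to all 24 samples, *Hmgcs1* stood at 299 ± 38.2 CPM (SD, n = 3) in stomach, 110 ± 39.8 in tongue, 40.2 ± 4.05 in muscle and 20.3 ± 4.44 in heart, and each neighbour in this order differed past the threshold of an adjusted p of 0.05, between 0.0013 and 0.023. By library size alone the muscle and heart levels of *Hmgcs1* were 26.4 and 23.8 CPM, so that step depended on the scaling. *Cyp51* stood at 114 ± 33.6 CPM in stomach and 79.8 ± 63.2 in tongue, which did not differ past the threshold (adjusted p = 0.52), and at 13.2 ± 4.94 in heart and 9.54 ± 1.83 in muscle (adjusted p = 0.59 between these). *Sqle* followed the same order, with 72.5 ± 15.2 CPM in stomach, 35.9 ± 27.9 in tongue, 6.14 ± 0.384 in heart and 4.19 ± 1.49 in muscle, where the step from tongue to heart passed the test (adjusted p = 0.0068). For these enzymes both stomach and tongue thus stood above heart and muscle.

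*Insig1* stood apart in this ranking, with 115 ± 27.1 CPM in stomach, 32.8 ± 5.74 in muscle, 28.6 ± 10.3 in tongue and 20 ± 3.21 in heart, and the step down from stomach passed the test (adjusted p = 0.0011). *Fdft1* was 183 ± 108 CPM in stomach, 127 ± 22.3 in muscle, 125 ± 33.7 in tongue and 32.0 ± 6.27 in heart, where the step to heart passed the test (adjusted p = 1.81e-04). *Lss* was 39.1 ± 18.2 CPM in tongue and 32.4 ± 3.60 in stomach (adjusted p = 0.77), against 6.43 ± 0.653 in muscle and 6.15 ± 1.66 in heart. Scaled by library size alone, muscle moved below tongue for *Fdft1* (83.0 against 142 CPM) and for *Insig1* (21.5 against 32.4 CPM), and below heart for *Insig1* (23.5 CPM) and *Lss* (4.23 against 7.24 CPM). *Idi1* was low everywhere, from 1.99 ± 0.282 CPM in heart to 7.59 ± 6.77 in tongue. By the joint fit of edgeR's quasi-likelihood test, the control level differed between tissues for 7 of the 8 genes, all but *Idi1*, where 67.7% of all genes tested passed. Of single pairs of control tissues, 29.1% of all genes passed between heart and tongue, 33.7% between heart and muscle, 36.9% between stomach and tongue, 38.1% between muscle and tongue, 42.5% between heart and stomach and 51.6% between stomach and muscle. Per kilobase of exon, the control level of *Hmgcs1* in stomach was 65.2 CPM per kb, against 43.4 for *Fdft1*, 37.3 for *Insig1*, 25.8 for *Cyp51*, 13.1 for *Sqle*, 3.00 for *Lss* and 2.13 for *Idi1*.

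*Fdps*, which makes farnesyl diphosphate, could not be read from these counts. It stood at 1.93 to 3.65 CPM in stomach, 2.18 to 6.86 in tongue and at most 0.642 in heart and muscle, and it was left out of the test in heart and muscle for low counts. *Gm43738* shares exons with it on the same strand and was listed at 0 in all 24 libraries. A further 5 members share exons with a gene on the other strand, namely *Fdft1* with *Ctsb*, *Cyp51* with *Akap9*, *Hmgcs1* with *Gm48342*, *Idi1* with *Gm48574* and *Lss* with *4930483K19Rik*, and the sources differ on whether the libraries kept the strand.

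**Figure D1:**
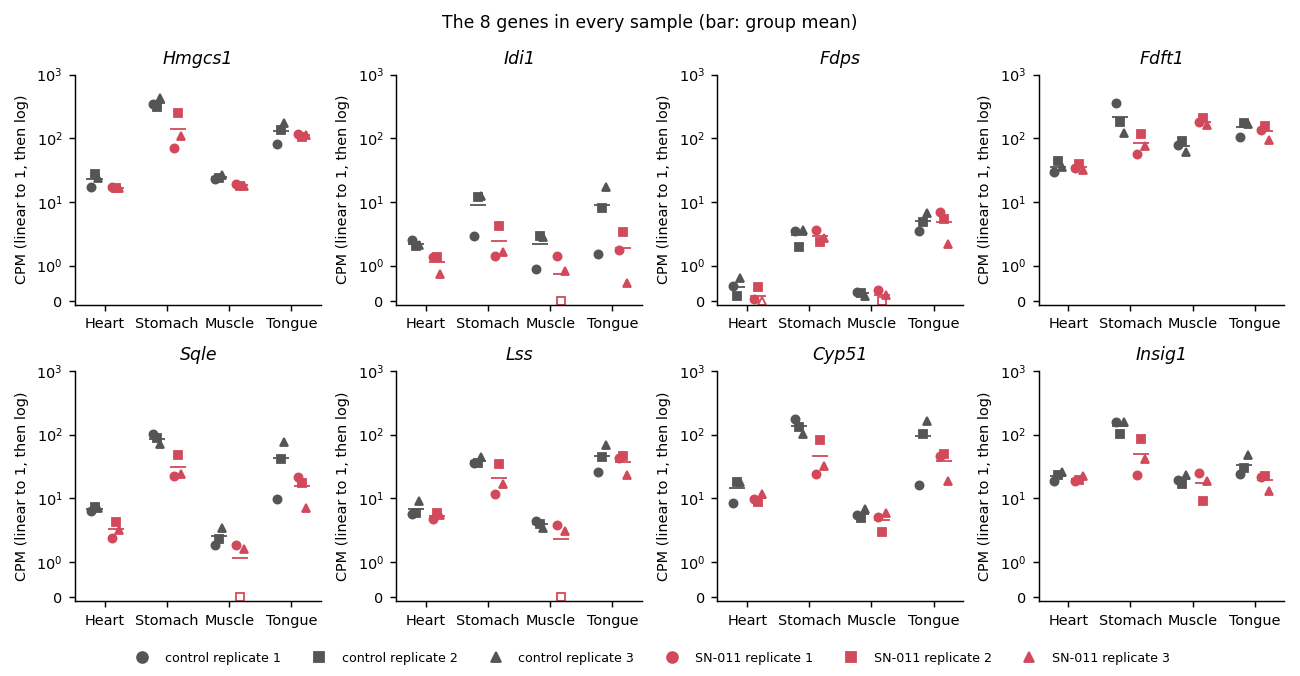
CPM of the 8 genes in each of the 24 samples (vertical axis linear up to 1 CPM and logarithmic above), by tissue, with control samples in grey, SN-011 samples in red, a marker shape for each replicate number, open markers for 0 counts and a bar for each group mean. In stomach the SN-011 samples of *Hmgcs1*, *Fdft1*, *Sqle*, *Lss*, *Cyp51* and *Insig1* lie below all 3 controls; in muscle the SN-011 samples of *Fdft1* lie above them.

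The stomach held the difference that most members shared. In 6 of the 8 genes every SN-011 sample lay below every control, namely *Hmgcs1*, *Fdft1*, *Sqle*, *Lss*, *Cyp51* and *Insig1*, whereas 15.2% of all 17031 genes tested were separated in this direction. The fitted level in controls was 1.86 times (*Lss*) to 2.94 times (*Cyp51*) that after SN-011 in these 6. No gene of the 17031 passed the adjusted threshold in stomach by edgeR's quasi-likelihood test (0.0% called, smallest adjusted p = 0.062), so none of the 8 did. At an unadjusted p under 0.05, 7 of the 8 genes were lower, against 11.4% of all genes (24.6% in either direction). All 8 log2 fold changes were below 0, as were 49.8% of all genes, and their median was -1.42, beside 0.00 over all genes tested.

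*Cyp51*, the lanosterol demethylase, stood at 173, 133 and 101 CPM in the 3 controls and at 24, 82.3 and 32.6 CPM in the 3 SN-011 samples. The groups did not overlap, and SN-011 replicate 2 lay closest to the controls. Its log2 fold change was -1.55 (SE 0.47, adjusted p = 0.11). *Sqle*, a rate-limiting oxidation of the pathway, stood at 102, 87.6 and 70.5 CPM in controls and 22.2, 47.8 and 23.8 CPM after SN-011, with a log2 fold change of -1.47 (SE 0.34, adjusted p = 0.076). Again replicate 2 was the highest of the treated samples.

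*Hmgcs1* was 344, 315 and 421 CPM in controls against 71.5, 247 and 107 CPM after SN-011 (log2 fold change -1.35, SE 0.46, adjusted p = 0.13). *Insig1*, the sterol-dependent brake on SREBP2 processing, was 156, 101 and 159 CPM against 23, 86.2 and 41.8 CPM (log2 fold change -1.46, SE 0.46, adjusted p = 0.12). In both genes replicate 2 of the treated group was more than 2 times as high as the other treated samples. *Fdft1*, squalene synthase, was 355, 178 and 120 CPM against 57.3, 117 and 75.1 CPM (log2 fold change -1.39, SE 0.45, adjusted p = 0.12), so that its highest treated sample nearly met its lowest control.

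*Lss* had the smallest difference of the 6, with 36.0, 35.6 and 45.2 CPM in controls and 11.9, 34.2 and 16.8 CPM after SN-011 (log2 fold change -0.89, SE 0.38, adjusted p = 0.19). *Idi1*, the isopentenyl diphosphate isomerase, had the largest fold but overlapped, with 2.9, 11.8 and 12.5 CPM against 1.41, 4.22 and 1.66 CPM (log2 fold change -1.90, SE 0.66, adjusted p = 0.14). Control replicate 1, the female, was the low control, with 36 counts. *Fdps* showed no difference in its low counts (log2 fold change -0.05, SE 0.48).

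In stomach the method changed the call. No member changed direction under any other method but *Fdps*. It went from -0.05 to 0.14 when scaled by library size alone, and to 0.001 with at least 10 counts in every sample. In the joint fit of all 24 samples, which shares the spread between tissues, *Hmgcs1*, *Fdft1* and *Insig1* were called lower (adjusted p = 0.0086, 0.0080 and 0.021), with 13.9% of all genes called. DESeq2 called 6 of the 8 lower, with 14% of all genes called. Without SN-011 replicate 2, the log2 fold change was -2.28 (SE 0.37) for *Cyp51* and -2.03 (SE 0.38) for *Hmgcs1*, while no member passed the threshold (adjusted p = 0.057 and 0.063).

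**Figure D2:**
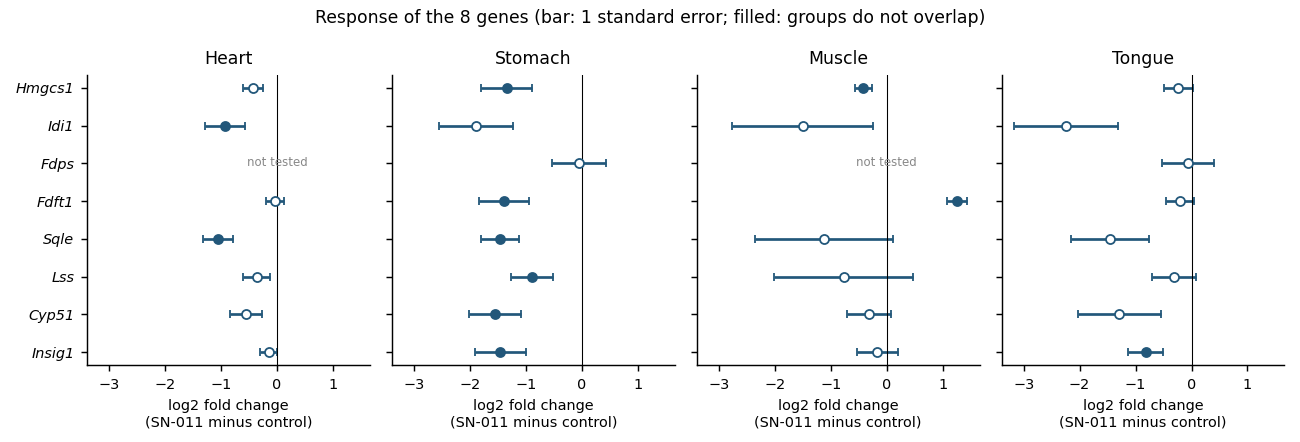
Log2 fold change (SN-011 minus control) of the 8 genes in each tissue on the horizontal axis, with 1 standard error as the bar and filled points where the 3 treated and 3 control samples do not overlap. Most points lie left of 0; *Fdft1* in muscle lies at 1.25, and *Fdps* was not tested in heart and muscle.

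The rest of the pathway showed the same side in stomach. Of the 14 other cholesterol synthesis enzymes, 9 were separated below the controls and 1, *Tm7sf2*, above, where 15.2% and 17.8% of all genes were. Their median log2 fold change was -0.77. None passed the adjusted threshold, 9 were lower at an unadjusted p under 0.05, against 11.4% of all genes, and DESeq2 called 5 lower, against 14%. *Msmo1*, a sterol methyl oxidase, stood at 179, 119 and 144 CPM in controls and 26.3, 67.3 and 33.5 CPM after SN-011 (log2 fold change -1.80, SE 0.38, adjusted p = 0.071). *Dhcr7*, which makes cholesterol from its last precursor, stood at 25.8, 29.6 and 30.1 CPM against 14.6, 21.2 and 19.4 CPM, a log2 fold change of -0.63 (SE 0.24, adjusted p = 0.16).

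Single genes of the processing machinery were on the same side. *Mbtps2*, the second protease that frees SREBP, was 27.2, 29.5 and 31.9 CPM against 13.5, 13.8 and 12.5 CPM (log2 fold change -1.16, SE 0.23, adjusted p = 0.067), 2 tight groups far apart. *Srebf2*, which encodes SREBP2, overlapped between groups (log2 fold change -0.65, SE 0.33, adjusted p = 0.26), and *Insig2* did not (-0.79, SE 0.27, adjusted p = 0.13). Of the 14 genes of SREBP2 control and sterol uptake, none passed the adjusted threshold, 4 were lower and 1 higher at an unadjusted p under 0.05, and DESeq2 called 2 lower. In this list 3 genes were separated below and 1 above the controls, where 15.2% and 17.8% of all genes were. Of its 14 log2 fold changes 7 were below 0, beside 49.8% of all genes. At an unadjusted p under 0.05, 11.4% of all genes were lower and 13.2% higher, and DESeq2 called 14%.

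Cell markers also shifted among the stomach samples. The 6 squamous epithelium markers summed to 115 to 241 CPM in controls and to 1494, 451 and 900 CPM in SN-011 replicates 1 to 3, and 5 of the 6 were separated above the controls. The 6 gastric gland markers summed to 14960 to 56370 CPM in controls and to 4449, 18710 and 13850 CPM after SN-011, so the groups overlapped. Of the 6, only *Atp4a*, the proton pump, was separated below. Control replicate 3 had the lowest gastric sum of the controls, with their highest *Hmgcs1*, *Lss* and *Insig1* and their lowest *Fdft1*, *Sqle* and *Cyp51*. Replicate 2, the treated sample highest in the 6 sterol genes, was also the treated sample highest in gastric and lowest in squamous markers. Mitochondrial transcripts took 3.00% to 7.25% of the counts in controls and 14.9%, 7.08% and 11.1% after SN-011. The part of these shifts in the sterol genes was not tested, and in bulk tissue fewer cells of a type cannot be told apart from less RNA per cell.

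**Figure D3:**
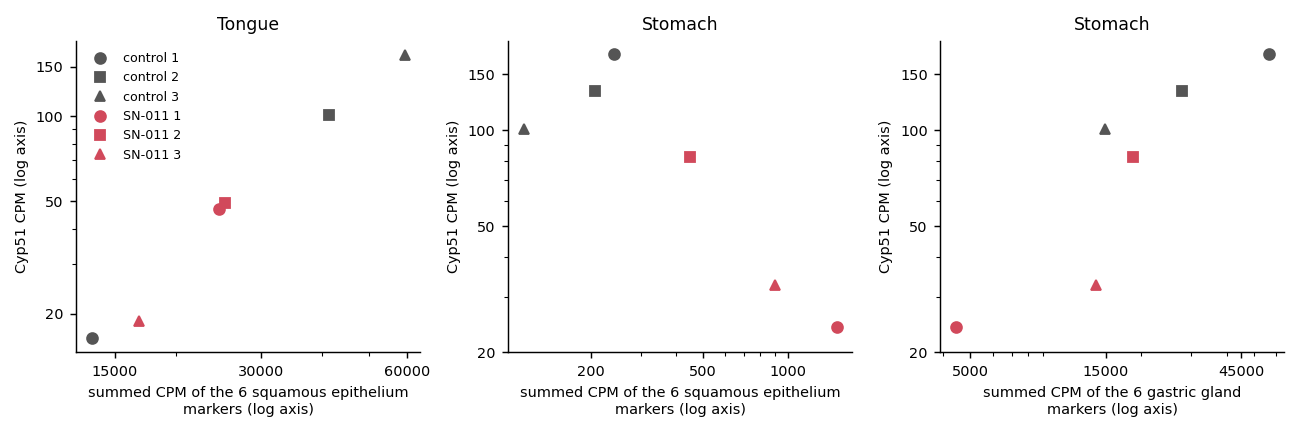
*Cyp51* (CPM, vertical logarithmic axis) against the summed CPM of 6 marker genes (horizontal logarithmic axis), 1 point per sample, for squamous epithelium markers in tongue, the same markers in stomach, and gastric gland markers in stomach, with control samples in grey and SN-011 samples in red. In tongue all 6 samples stand in the same order on both axes; in stomach the treated samples with most squamous and fewest gastric marker counts are lowest in *Cyp51*.

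In heart *Sqle* and *Idi1* were the members whose groups did not overlap. None of the 7 members tested passed the adjusted threshold, with 0.848% of 16151 genes called, and 2 members were separated below the controls, where 13.1% of all genes were. *Sqle* stood at 6.31, 7.18 and 7.06 CPM in controls and 2.42, 4.28 and 3.15 CPM after SN-011 (log2 fold change -1.06, SE 0.26, adjusted p = 0.086), on 104 to 132 and 36 to 65 counts. *Idi1* stood at 2.56, 2.00 and 2.09 CPM against 1.34, 1.38 and 0.757 CPM (log2 fold change -0.93, SE 0.36, adjusted p = 0.18), on as few as 12 counts. At an unadjusted p under 0.05, 3 members were lower (*Hmgcs1*, *Sqle* and *Idi1*), against 11.6% of all genes, and DESeq2 called *Sqle*, with 8.39% of all genes called. All 7 log2 fold changes were below 0, as were 51.4% of all genes, with a median of -0.43 beside -0.01 over all genes.

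The other members overlapped between the heart groups. *Cyp51* stood at 8.33, 18.1 and 17.9 CPM in controls and 9.74, 8.81 and 11.5 CPM after SN-011, and *Hmgcs1* at 17.3, 27.4 and 23.4 CPM against 17.5, 16.4 and 16.5 CPM. In both, the female control was the lowest control and the only control not above every treated sample. Without it 6 of the 7 members were separated below the controls, against 18.8% of all genes, and none was called (adjusted p = 0.067 for *Cyp51*). The heart controls that remain there, replicates 2 and 3, carried gastric gland markers at 783 and 70.9 CPM in sum. Control replicate 1 had 9.09 CPM and the SN-011 hearts at most 20.3 CPM, and the part of these transcripts was not tested. *Fdft1* differed by -0.03 (SE 0.16) and *Insig1* by -0.15 (SE 0.16) on the log2 scale.

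Of the 14 other enzymes 5 were separated below the controls in heart and none above, where 13.1% and 14.1% of all genes were. *Msmo1*, the sterol methyl oxidase, was 12.9, 15.8 and 13.6 CPM in controls and 9.27, 9.54 and 8.39 CPM after SN-011 (log2 fold change -0.64, SE 0.16, adjusted p = 0.088). *Srebf2* was 52.2, 59.7 and 79.8 CPM against 39.4, 49.1 and 35.7 CPM (log2 fold change -0.63, SE 0.18, adjusted p = 0.11).

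Among the oxysterol and LXR genes of the heart, none of the 11 tested passed the threshold. At an unadjusted p under 0.05, 1 was lower and 2 were higher, against 11.6% and 10.8% of all genes. DESeq2 called the same numbers, with 8.39% of all genes called. *Ch25h*, which makes the oxysterol that holds SREBP2 back, was 9.63, 15.5 and 26.9 CPM in controls and 3.22, 2.76 and 5.99 CPM after SN-011 (log2 fold change -2.11, SE 0.41, adjusted p = 0.054), separated with a wide spread among the controls. *Cyp27a1*, a mitochondrial sterol hydroxylase, was 40.5, 56.3 and 54.2 CPM against 75.8, 86.4 and 91.4 CPM (log2 fold change 0.75, SE 0.15, adjusted p = 0.054). The summed cardiac markers were 22550 to 32170 CPM in controls and 32310 to 39780 CPM after SN-011, the summed erythroid markers were 429 to 1179 against 1193 to 2226 CPM, and 6 of 6 T cell markers had a log2 fold change below 0. Their part in the sterol genes was not tested.

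In muscle *Fdft1* stood against the other members. It was 79.0, 89.6 and 61.7 CPM in the controls and 181, 207 and 160 CPM after SN-011, a log2 fold change of 1.25 (SE 0.18, adjusted p = 0.076) with every treated sample well above the highest control. It was the only member separated above the controls in any tissue, where 14.7% of the 14198 genes tested in muscle were. No member passed the adjusted threshold, with 0.0141% of all genes called. At an unadjusted p under 0.05, *Fdft1* was higher and *Hmgcs1* lower, against 8.96% and 5.8% of all genes (14.8% in all), and DESeq2 called *Fdft1* alone of the members, with 6.21% of all genes called. Without SN-011 replicate 2 it was called (log2 fold change 1.15, SE 0.17, adjusted p = 0.025), with 7.40% of all genes called, and without any other single library it was not.

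The exons of *Fdft1* and *Ctsb*, a lysosomal protease, overlap on opposite strands. In muscle *Ctsb* was 471, 435 and 444 CPM in controls and 484, 275 and 488 CPM after SN-011, with no separation of the groups (log2 fold change -0.11, SE 0.23). In stomach it was 2277, 1687 and 1646 CPM against 725, 993 and 1012 CPM, separated in the direction of *Fdft1* there (log2 fold change -1.04, SE 0.39). *Ctsb* thus shared the direction of *Fdft1* in stomach and not in muscle, and what part of the *Fdft1* count it supplies was not tested.

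Of the 7 members tested in muscle, 6 had a log2 fold change below 0, as had 55.5% of all genes. The other members of muscle include several whose values moved with SN-011 replicate 2. That library had 0 counts of *Sqle*, *Idi1* and *Lss*, which allows up to 0.211 CPM, although it held 2541 counts of *Fdft1* and 218 of *Hmgcs1*. *Hmgcs1* was 22.8, 23.8 and 26.6 CPM in controls and 19.4, 17.8 and 17.6 CPM after SN-011 (log2 fold change -0.42, SE 0.14, adjusted p = 0.28), the only member separated below, where 19.8% of all genes were. Without replicate 2 its log2 fold change was -0.40 (SE 0.12, adjusted p = 0.085). *Sqle* was 1.85, 2.26 and 3.48 CPM against 1.88, 0 and 1.59 CPM, and its log2 fold change went from -1.12 (SE 1.23) to -0.55 (SE 0.35) without that library. *Insig1* went from -0.17 (SE 0.37) to 0.14 (SE 0.19).

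Other enzymes in muscle were mostly on the lower side, as the members were. Of the 14, 12 had a log2 fold change below 0, where 55.5% of all genes did. Their median was -0.64, beside -0.08 over all genes, with SN-011 replicate 2 included. *Pmvk*, the phosphomevalonate kinase, was 9.82, 9.28 and 7.46 CPM in controls and 16.5, 22.3 and 15.8 CPM after SN-011 (log2 fold change 1.04, SE 0.23, adjusted p = 0.15). *Dhcr7* was 4.54, 6.62 and 8.12 CPM against 3.63, 0 and 3.74 CPM, separated below and at 0 in replicate 2. Of the 14 other enzymes, 4 were separated below and 1 above, where 19.8% and 14.7% of all genes were, and none passed the adjusted threshold. At an unadjusted p under 0.05, 1 was higher, against 8.96% of all genes, and DESeq2 called 1 higher, against 6.21%. *Cyp27a1* was 127, 129 and 102 CPM against 294, 231 and 261 CPM (log2 fold change 1.13, SE 0.15, adjusted p = 0.076). *Abcg1*, a cholesterol exporter, was 4.01, 5.21 and 3.73 CPM against 8.76, 12.1 and 7.71 CPM (log2 fold change 1.14, SE 0.32, adjusted p = 0.22). Marker sums were separated in muscle too. Skeletal muscle markers summed to 117800 to 131900 CPM in controls and 146000 to 168200 CPM after SN-011, macrophage markers to 266 to 323 against 375 to 404 CPM, and erythroid markers to 172 to 696 against 739 to 1045 CPM. Gastric gland markers (22.8 to 264 against 0 to 11.3 CPM) and squamous markers (6.28 to 9.28 against 4.48 to 4.98 CPM) were separated below, and adipocyte markers overlapped (9.85 to 823 against 172 to 984 CPM). Their part in these genes was not tested.

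In tongue the controls themselves were spread. All 8 log2 fold changes were below 0, as were 51.5% of all genes, with a median of -0.57. *Cyp51* stood at 16.4, 101 and 165 CPM in the 3 controls and at 46.9, 49.3 and 18.9 CPM after SN-011, so the groups overlapped through control replicate 1, the female (log2 fold change -1.29, SE 0.74, adjusted p = 0.49). *Sqle* had the same form, with 9.66, 41.9 and 75.5 CPM against 21.4, 17.7 and 7.16 CPM (log2 fold change -1.46, SE 0.70, adjusted p = 0.43). *Idi1* was 1.53, 7.90 and 17.4 CPM against 1.79, 3.36 and 0.498 CPM (log2 fold change -2.24, SE 0.92, adjusted p = 0.39). In each of these genes control replicates 2 and 3 lay above all treated samples and control replicate 1 among or below them.

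*Insig1* was the only member separated in tongue, where 8.38% of the 16587 genes tested were separated below and 9.4% above. It was 24, 29.9 and 47.3 CPM in controls and 21.8, 22.4 and 13.1 CPM after SN-011 (log2 fold change -0.82, SE 0.31, adjusted p = 0.37). No member and no other gene passed the adjusted threshold (0.0% called; smallest adjusted p = 0.13), while 2 of the 8 members (*Idi1* and *Insig1*) were lower at an unadjusted p under 0.05, against 7.33% of all genes. DESeq2 called 2.42% of all genes and no member. Of the 14 other cholesterol synthesis enzymes, none was separated in tongue. A log2 fold change below 0 was found in 13 of them and in 51.5% of all genes. At an unadjusted p under 0.05, 2 of them were lower and 1 higher, against 7.33% and 5.17% of all genes. *Hmgcs1* (-0.23, SE 0.25), *Fdft1* (-0.21, SE 0.25), *Lss* (-0.32, SE 0.39) and *Fdps* (-0.06, SE 0.46) differed by less than their standard error on the log2 scale. Without control replicate 1, *Sqle*, *Idi1*, *Cyp51* and *Insig1* were called lower (adjusted p = 0.024, 0.030, 0.023 and 0.047), with 12.5% of all genes called, and *Cyp51* had a log2 fold change of -1.79 (SE 0.38). Control replicates 2 and 3 that remain in that comparison are the tongue libraries that carry gastric gland markers, at 974 and 828 CPM in sum.

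The tongue samples also differed in squamous epithelium markers. The 6 markers summed to 13450, 41380 and 59330 CPM in control replicates 1 to 3 and to 24600, 25320 and 16820 CPM in SN-011 replicates 1 to 3. Over the 6 samples this is the order of *Cyp51*, from control replicate 1 up to control replicate 3. *Krt13*, a keratin of the upper layers, ran from 3919 to 30260 CPM, while *Krt5*, a keratin of the basal layer, ran from 2968 to 5184 CPM. Whether the makeup of the epithelium accounts for the sterol genes was not tested.

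**Figure D4:**
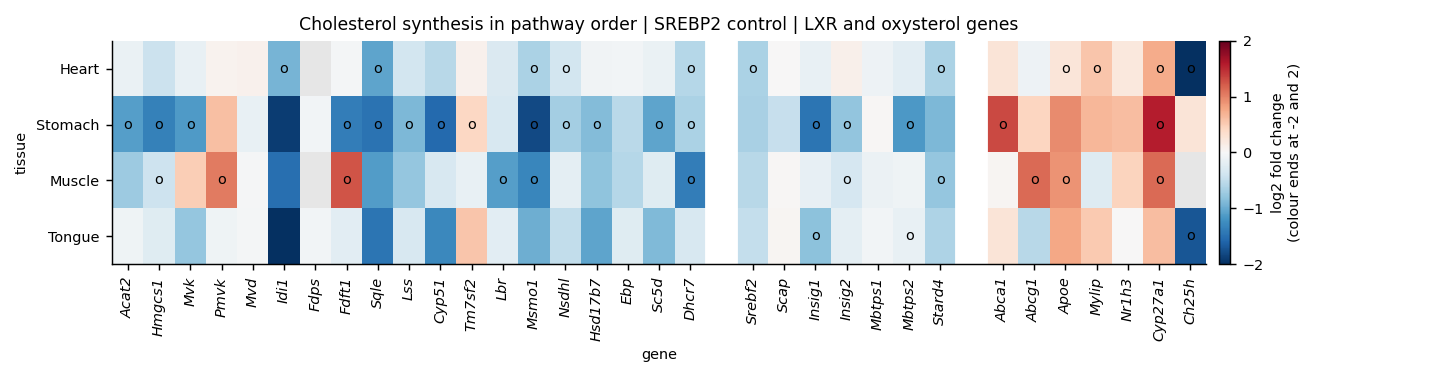
Log2 fold change (SN-011 minus control; blue lower, red higher, colour ending at -2 and 2) in the 4 tissues (rows) for selected cholesterol synthesis genes in pathway order, genes of SREBP2 control and LXR or oxysterol genes (columns); circles mark groups that do not overlap and grey cells genes not tested. The row of circles in stomach holds 6 of the 8 members, and *Fdft1* and *Pmvk* are red in muscle.

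Only for *Fdft1* did the response to SN-011 differ between the 4 tissues past the threshold. In the joint fit, which takes the 24 samples as independent, its tissue by treatment test had an adjusted p of 0.026, where 2.32% of 19731 genes were called. The difference between stomach and muscle carried it, with -2.59 on the log2 scale (SE 0.47, adjusted p = 0.0040), where 6.95% of all genes were called. The other 5 tissue pairs did not pass for *Fdft1*. They ran from -1.23 (SE 0.47) between stomach and tongue to 1.40 (SE 0.47, adjusted p = 0.13) between heart and stomach. Of all genes 2.01% were called between heart and stomach, 0.821% between stomach and tongue, 0.0355% between muscle and tongue, 0.00507% between heart and muscle and 0.0% between heart and tongue. With each of the 24 libraries left out in turn, 19 of the fits kept *Fdft1* past the threshold and 5 did not, with adjusted p between 0.0072 and 0.090. Those 5 left out muscle control replicate 2 or 3, muscle SN-011 replicate 1, or stomach SN-011 replicate 1 or 3 (adjusted p = 0.053, 0.075, 0.056, 0.089 and 0.090).

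The other 7 genes were not shown to differ in response between tissues, and their standard errors were wide. *Hmgcs1* had an adjusted p of 0.37 and differed between stomach and tongue by -1.14 (SE 0.45). *Insig1* had an adjusted p of 0.39 and differed between heart and stomach by 1.33 (SE 0.57). *Sqle* had an adjusted p of 0.99, and its response differed between heart and stomach by 0.44 with an SE of 0.92. Without stomach SN-011 replicate 2, *Hmgcs1* was called beside *Fdft1*.

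**Figure D5:**
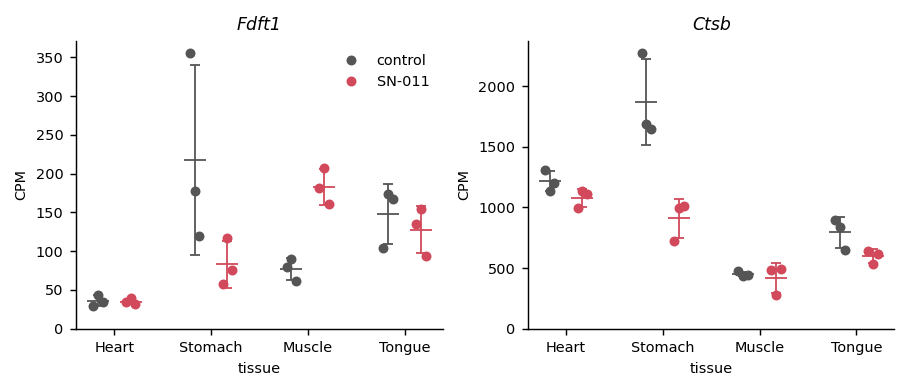
CPM of *Fdft1* (left) and of *Ctsb* (right), whose exons overlap on the opposite strand, in each tissue, with control samples in grey, SN-011 samples in red, and the mean ± SD of 3 samples. *Fdft1* is 160 to 207 CPM after SN-011 in muscle against 61.7 to 89.6 CPM in controls, while *Ctsb* overlaps there.

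The mevalonate pathway also feeds branches that make no sterols. Of the 8 genes of the non-sterol branches, none passed the threshold of edgeR's quasi-likelihood test in any tissue. In stomach 2 were lower at an unadjusted p under 0.05, against 11.4% of all genes, and DESeq2 called 2 lower, against 14%. There 2 were separated below and 1 above the controls, where 15.2% and 17.8% of all genes were. *Nus1*, a subunit of the enzyme that makes dolichol, was 100, 116 and 84.4 CPM in control stomach against 45.6, 68.5 and 57.2 CPM (log2 fold change -0.81, SE 0.25, adjusted p = 0.12). *Pggt1b*, which prenylates proteins, was 10.1, 11.8 and 14.3 CPM against 6.42, 6.86 and 5.41 CPM there (log2 fold change -0.95, SE 0.32, adjusted p = 0.13). *Fntb*, a farnesyltransferase subunit, overlapped in stomach (-0.22, SE 0.34) and was separated above in heart (0.33, SE 0.13, adjusted p = 0.17).

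The 12 SREBP1 fatty acid genes were divided. None passed the threshold of edgeR's quasi-likelihood test in any tissue. At an unadjusted p under 0.05, 3 were lower and 1 higher in heart, against 11.6% and 10.8% of all genes. In muscle 1 was lower and 1 higher, against 5.8% and 8.96%, and in tongue 1 and 1, against 7.33% and 5.17%. DESeq2 called 2 lower and 1 higher in heart and 1 each way in muscle, with 8.39% and 6.21% of all genes called. In stomach 1 was lower at an unadjusted p under 0.05, against 11.4% of all genes, and DESeq2 called 1 lower, against 14%. There 2 were separated below the controls, where 15.2% of all genes were. These were *Me1*, malic enzyme (log2 fold change -1.71, SE 0.45, adjusted p = 0.090), and *Acss2*, acetyl-CoA synthetase (-0.51, SE 0.23, adjusted p = 0.22). *Srebf1* was level in stomach (-0.08, SE 0.21) and separated below in heart (-0.33, SE 0.12, adjusted p = 0.16) and muscle (-1.08, SE 0.51, adjusted p = 0.39). *Scd2*, a desaturase, was separated below in heart (-0.67, SE 0.21) and muscle (-1.72, SE 0.49), and *Fads2* above in tongue (0.39, SE 0.18). Over the other methods and left-out libraries, the log2 fold change of *Fads2* was -1.46 to -0.93 in heart. It was -1.19 to -0.063 in muscle and 0.31 to 1.12 in stomach. *Acacb*, the acetyl-CoA carboxylase at mitochondria, was separated above in heart, muscle and tongue (0.83, 0.79 and 0.67, adjusted p = 0.076, 0.18 and 0.38).

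Sterol export and degradation genes stood on the other side in stomach. *Abca1*, the exporter induced by LXR, was 12.8, 18.4 and 31.3 CPM in controls and 70.8, 38.9 and 46.9 CPM after SN-011 (log2 fold change 1.32, SE 0.37, adjusted p = 0.098). *Cyp27a1* was 11.9, 8.29 and 15.3 CPM against 45.5, 28.3 and 31.7 CPM (log2 fold change 1.57, SE 0.31, adjusted p = 0.069). Both were separated, and replicate 2 was the treated sample nearest to the controls, as it was for the 6 synthesis genes. Of all genes tested in stomach, 17.8% were separated above the controls and 15.2% below. Of the 11 LXR and oxysterol genes tested there, 3 were separated above and 1 below, with a median log2 fold change of 0.61. None passed the adjusted threshold. At an unadjusted p under 0.05, 2 were higher, against 13.2% of all genes, and DESeq2 called 2 higher, against 14%. In muscle *Abca1* had a log2 fold change of 0.03 (SE 0.16), which turned to -0.20 when scaled by library size alone. *Ch25h* was at 2.18 to 4.02 CPM in stomach with no separation, and in tongue at 3.18, 4.86 and 3.87 CPM against 1.43, 1.49 and 0.685 CPM (log2 fold change -1.72, SE 0.40, adjusted p = 0.27). *Ube2g2*, a ubiquitin-conjugating enzyme of protein degradation at the endoplasmic reticulum, was separated above in heart, muscle and tongue (0.63, 0.57 and 0.48, adjusted p = 0.054, 0.14 and 0.37).

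Across samples the 8 genes moved with each other to different degrees. With each tissue's mean removed, the mean of the 8 over 24 samples had a Pearson correlation of 0.96 with *Sqle*, 0.91 with *Idi1*, 0.89 with *Insig1*, 0.87 with *Lss* and *Cyp51*, 0.77 with *Hmgcs1* and 0.35 with *Fdft1*, each of which is part of that mean. Of 12596 genes with a mean of at least 1 CPM in every tissue, the 10 outside the list most like it were *Clint1*, *Ermp1*, *Msmo1*, *Ndfip2*, *Srebf2*, *Rab11fip1*, *Mapkap1*, *Stk24*, *Rab6a* and *Decr2*, with correlations of 0.92 to 0.95. Muscle SN-011 replicate 2 lay 2.04 below its tissue mean on the log2 scale and weighed on this list. Without it, in 23 samples, *Msmo1* came first at 0.95, 4 of the former 10 stayed among the first 10 (*Clint1*, *Ermp1*, *Mapkap1* and *Msmo1*), and *Commd10*, *Erg28*, *Uchl3*, *Tpd52* and *Tmem97* were among those that joined them. At the other end of the gene lists, *Cyp27a1* had -0.63, *Apoe* -0.53 and *Abca1* -0.53 over the 24 samples, and -0.76, -0.71 and -0.84 over the 23. The samples share treatment, tissue and library, so these values describe the 24 libraries.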

How the data were processed

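Per the labels, polyA+ RNA was sequenced, aligned with HISAT2 to mm10 and counted with HTSeq, whereas the methods text names featureCounts and a strand-specific library, so the counter and the strand are not certain. The authors deposited 1 table of raw read counts per gene and sample, with no normalization and no pooling. From these counts, each tissue was fitted by itself with edgeR (version 4.0.16, R 4.3.3), using filterByExpr (minimum count 10, minimum total 15), TMM scaling, the quasi-likelihood test (glmQLFit and glmQLFTest) and Benjamini-Hochberg adjustment over all genes tested, with 0.05 as the threshold. Differences between tissues came from 1 fit of all 24 samples. CPM values use TMM within a tissue, and levels between tissues use TMM over all samples. Two-sided p-values are given throughout, and "separated" means that the 3 SN-011 and 3 control samples did not overlap.

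The steps were tested on simulated data with 200 changed genes. For a true log2 change of 1 the fit recovered 55.0% of the genes in heart (15789 genes), 3.03% in stomach (16486), 2.06% in muscle (13550) and 15.2% in tongue (16228), and for a change of 2 it recovered 90.9%, 52.0%, 31.3% and 79.8%. False calls were 16.7%, 1.79%, 5.71% and 6.93% of the calls in these simulations. Total counts of 14253416 to 18443329 put the floor of 3 counts at 0.163 to 0.211 CPM, which covers counting error only.

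The members and gene lists were chosen with earlier results of these data known. Named beside the members were *Srebf2*, *Srebf1*, *Insig2*, *Ch25h* and *Abca1*, genes past the threshold, for each list and tissue the 2 separated genes of largest log2 fold change, and the 10 genes most like the members' mean. *Pmvk*, *Tm7sf2*, *Krt5*, *Krt13*, *Atp4a*, *Apoe* and *Pnlip* were named after their values were seen, and *Ctsb* and *Gm43738* for their overlap. Some genes that the rule names are not reported here, although counts over a list include them. Alternatives were RLE scaling, library size alone, no filter, at least 10 counts in every sample, DESeq2 (1.42.0), edgeR's exact test, the joint fit, a replicate block and leaving out each library. Figures were drawn with matplotlib (3.10.9).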

Additional observations from a re-analysis of the deposited data

Results flagged for a closer look

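The response of *Fdft1* to SN-011 differed between the 4 tissues in the joint fit of 24 samples (tissue by treatment test of edgeR's quasi-likelihood method, adjusted p = 0.0264). Its log2 fold change was 1.25 (SE 0.18) in muscle, -0.03 (SE 0.16) in heart, -0.21 (SE 0.25) in tongue and -1.39 (SE 0.45) in stomach, with 3 of 3 treated samples above the controls in muscle and 3 of 3 below them in stomach. The adjusted p ranged from 2.74e-04 (DESeq2) to 0.036 (replicate block) over the other methods, and from 0.0072 to 0.090 with 1 library left out. *Ctsb*, which shares exons with *Fdft1* on the other strand, had a log2 fold change of -0.11 (SE 0.23) in muscle and -1.04 (SE 0.39) in stomach.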

How the results depend on the processing

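The number of genes called in heart (137) was 249 with library size alone, 1888 without a filter, 265 with at least 10 counts in every sample, 1354 by DESeq2, 912 by edgeR's exact test, 242 with the replicate block and 1 in the joint fit, and 1 to 787 with 1 library left out. With library size alone 184 of 249 were lower, against 53 of 137. In stomach (0) it was 1368, 126, 2389, 1807, 181 and 2738 for no filter, at least 10 counts, DESeq2, the exact test, the block and the joint fit, and 0 to 64 with 1 library left out. In muscle (2) it was 1 with RLE or library size, 110, 75, 880, 442, 0 and 474 for the same 6, and 0 to 1103 with 1 library left out. In tongue (0) it was 18 without a filter, 401 by DESeq2, 246 by the exact test and 4 in the joint fit, and 0 to 2135 with 1 library left out. Members called were 1 in heart without a filter, by DESeq2 and by the exact test (*Sqle*), 5, 6, 4 and 3 in stomach without a filter, by DESeq2, by the exact test and in the joint fit, and 1 in muscle without a filter, with at least 10 counts, by DESeq2 and by the exact test (*Fdft1*). With 1 library left out they were 0 in heart and stomach, 0 to 1 in muscle and 0 to 4 in tongue. Members whose response differed between tissues were 0 to 2 with 1 library left out, and 4 members, all those tested, differed in control level with at least 10 counts. Leaving out control replicate 1 was an alternative chosen after seeing the data. Members separated below the controls were then 6 in heart, 7 in stomach, 3 in muscle and 6 in tongue. Of all genes, 18.8%, 24%, 26.9% and 23.6% were separated below in these settings, against 13.1%, 15.2%, 19.8% and 8.38% with all libraries. Without muscle SN-011 replicate 2, 1 member was separated below, as were 26.7% of all genes. The cause of these changes was not tested.

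The median log2 fold change of the members stayed below 0 under all of these, from -0.61 to -0.38 in heart, -1.98 to -1.14 in stomach, -0.51 to -0.20 in muscle and -0.81 to -0.31 in tongue with 1 library left out. Scaling by library size alone shifted the median of all genes by -0.15 in heart, 0.17 in stomach and -0.23 in muscle. It reversed *Insig2* (-0.046), *Me1* (-0.13) and *Acss2* (-0.032) in heart, *Fdps* (0.14) and *Srebf1* (0.093) in stomach, *Abca1* in muscle (-0.20) and *Fdps* in tongue (0.027). *Fdps* in stomach was 0.001 with at least 10 counts. *Abca1* in muscle was -0.011 with RLE, -0.012 with at least 10 counts, -0.0099 by DESeq2 and -0.045 in the joint fit. With 1 library left out, log2 fold changes crossed 0 for *Fdft1* (-0.18 to 0.13), *Abcg1* (-0.30 to 0.016) and *Me1* (-0.084 to 0.13) in heart, *Fdps* (-0.29 to 0.084), *Scd2* (-0.60 to 0.30) and *Fntb* (-0.55 to 0.0016) in stomach, *Insig1* (-0.51 to 0.14), *Abca1* (-0.040 to 0.13) and *Mbtps2* (-0.17 to 0.016) in muscle, and *Hmgcs1* (-0.48 to 0.032), *Fdps* (-0.41 to 0.29), *Lss* (-0.60 to 0.077) and *Dhcr7* (-0.59 to 0.023) in tongue.

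The replicate block called no member in any tissue. Within a tissue, control and SN-011 samples with the same number did not all deviate together (correlations from -0.33 to 0.24 over 10349 genes), so between these groups they share only a number. Whether a number marks the same mouse across tissues was not tested.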
